A study of Homo sapiens with 4 samples.

Results

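The autophagy and lysosome genes described here are 45 genes of the pathway by which cells enclose their own contents and break them down. They were chosen by symbol from a list of autophagosome, lysosome and lysosomal regulator genes, out of 19732 gene symbols in the A549 table. All 45 are also listed in the table of the other cell line. The list was drawn up with earlier results of these data known. Shares of members set beside shares of all genes therefore describe the list and are no test of it. The study measured messenger RNA in A549, a human lung adenocarcinoma cell line, and in H1299, another human lung cancer line. Each line had a culture with knockdown of RBM4, a splicing regulator that binds RNA, and a control culture. The values used are those of the A549 knockdown library and the A549 control library, with 1 library per group, and the H1299 libraries were not analysed here. How the knockdown was made is told by the labels only as far as sh in the sample title. The A549 table names one column after the line alone and the other after the line with a number that the labels do not explain. The numbered column was taken as the knockdown, and every direction below rests on that reading.

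Autophagy starts when the ULK1 kinase complex and the BECN1 lipid kinase complex mark a site for a new membrane. Conjugation enzymes then attach proteins of the ATG8 family to that membrane, and cargo receptors such as SQSTM1 tie cargo to them. The closed autophagosome fuses with a lysosome, an acidic organelle that a proton pump, the V-ATPase, keeps at low pH and that is filled with proteases, glycosidases and lipid-handling proteins. The transcription factors TFEB, TFE3 and MITF drive many of these genes through E-box elements in their promoters. GLB1 encodes lysosomal beta-galactosidase, whose activity at raised pH is the widely used staining mark of senescent cells, and the series title names senescence as its subject.

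Values are FPKM, fragment counts corrected for transcript length and library size, added up over all transcripts of a gene. RBM4 itself had 30.6 FPKM in the knockdown library and 59.4 FPKM in the control library. Totals were 622366 FPKM in the knockdown library and 671529 FPKM in the control library, and genes of the mitochondrial genome held 21.7% and 18.6% of them. Epithelial markers differed in direction. KRT8 had 888 FPKM in the knockdown and 1646 FPKM in the control library, KRT18 had 912 FPKM in the knockdown and 1853 FPKM in the control library, and KRT7 had 2446 FPKM in the knockdown and 1880 FPKM in the control library. EPCAM had 2.75 FPKM in the knockdown and 2.74 FPKM in the control library, CDH1 had 6.54 FPKM in the knockdown and 7.70 FPKM in the control library, and the lung lineage factor NKX2-1 was listed at 0 in both. Sequencing depth is unknown, so no counting interval can be given. With 1 library per group no difference has a replicate check and none was tested: each statement below is about a pair of libraries. In bulk RNA, fewer expressing cells and less RNA per cell cannot be told apart.

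All 45 genes reached 1 FPKM or more in at least 1 library, the minimum used for counting, and so did 12230 genes in all. Differences are log2 of FPKM plus 1 in the knockdown library minus the same in the control library. This scale understates the difference of genes near 0. Genes were counted by fold on this scale unless another setting is named. Of the 45 genes, 2 were higher by at least 2-fold, namely GABARAPL1 and CD68, against 4.96% of all genes. One was lower by at least 2-fold, LAPTM4B, against 2.25% of all genes. The 3 genes together are 6.67% of the members, close to the 7.21% of all genes that differed by 2-fold in either direction.

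At the smaller fold of 1.5, 9 of the 45 genes (20%) were higher, against 12.7% of all genes. Only LAPTM4B (2.22%) was lower by that much, against 9.83% of all genes. The other higher genes at this fold were WIPI1, MAP1LC3A, TFEB, NPC2, MAP1LC3B, CTSB and GLB1. The median difference of the members was 0.05, where that of all genes was -0.04, and 30 of the 45 (66.7%) lay above 0, where 46.6% of all genes did. In 15 members the difference was within 0.1 of 0, and in 27 it was within 0.3.

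How the libraries are scaled matters for genes near a threshold. Rescaling both libraries to the same total FPKM put 5 members (11.1%) past 2-fold higher, against 6.03% of all genes under that scaling. Leaving out the mitochondrial genome put 6 members (13.3%) there, against 6.62% of all genes. These scalings also moved the median of all genes, to 0.06 and 0.11, and the share of 2-fold genes that were higher, to 78.6% and 82.2% from 68.8%. The members near the threshold were WIPI1, MAP1LC3A, TFEB and NPC2, all between 0.90 and 0.99 before rescaling, with 1 added to FPKM. That added 1 matters here as well as the scaling. The plain ratio of knockdown to control FPKM was 2.15 for WIPI1, 2.06 for MAP1LC3A, 2.28 for TFEB and 1.88 for NPC2. The part of the mitochondrial share in these differences was not tested further. GABARAPL1, CD68 and LAPTM4B stayed past 2-fold in the same direction under each of the scalings, pseudocounts and transcript choices tried. Their smallest differences were 1.68 for GABARAPL1 (highest transcript), 1.34 for CD68 (short transcripts left out) and -1.99 for LAPTM4B (mitochondrial genome left out).

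**Figure D1:**
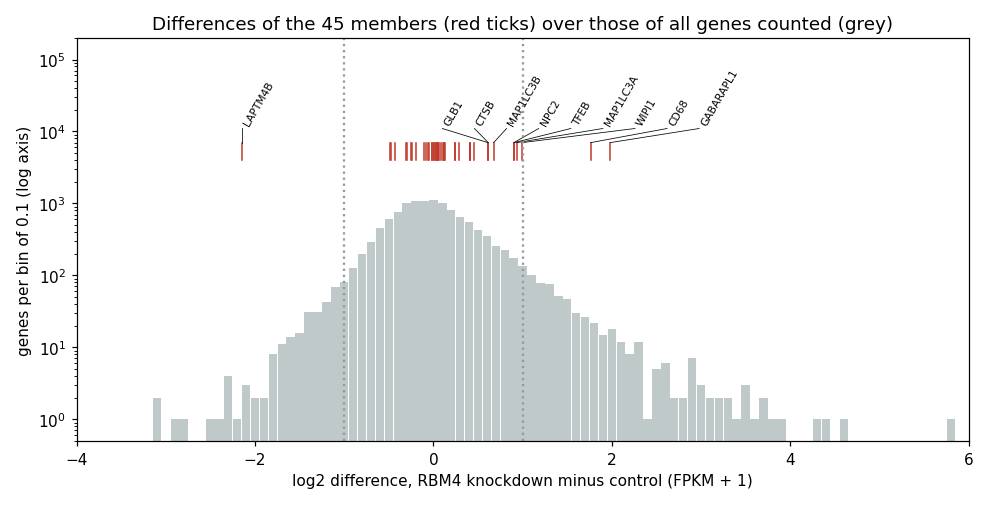
Differences of the 45 members (red ticks, the 10 beyond 1.5-fold named) over the distribution for 12230 genes (grey bars, log axis, bins of 0.1). The horizontal axis is the log2 difference, knockdown minus control, of FPKM plus 1, and dotted lines mark 2-fold. LAPTM4B lies at -2.15 and GABARAPL1 at 1.98, with most other members near 0.

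**Figure D2:**
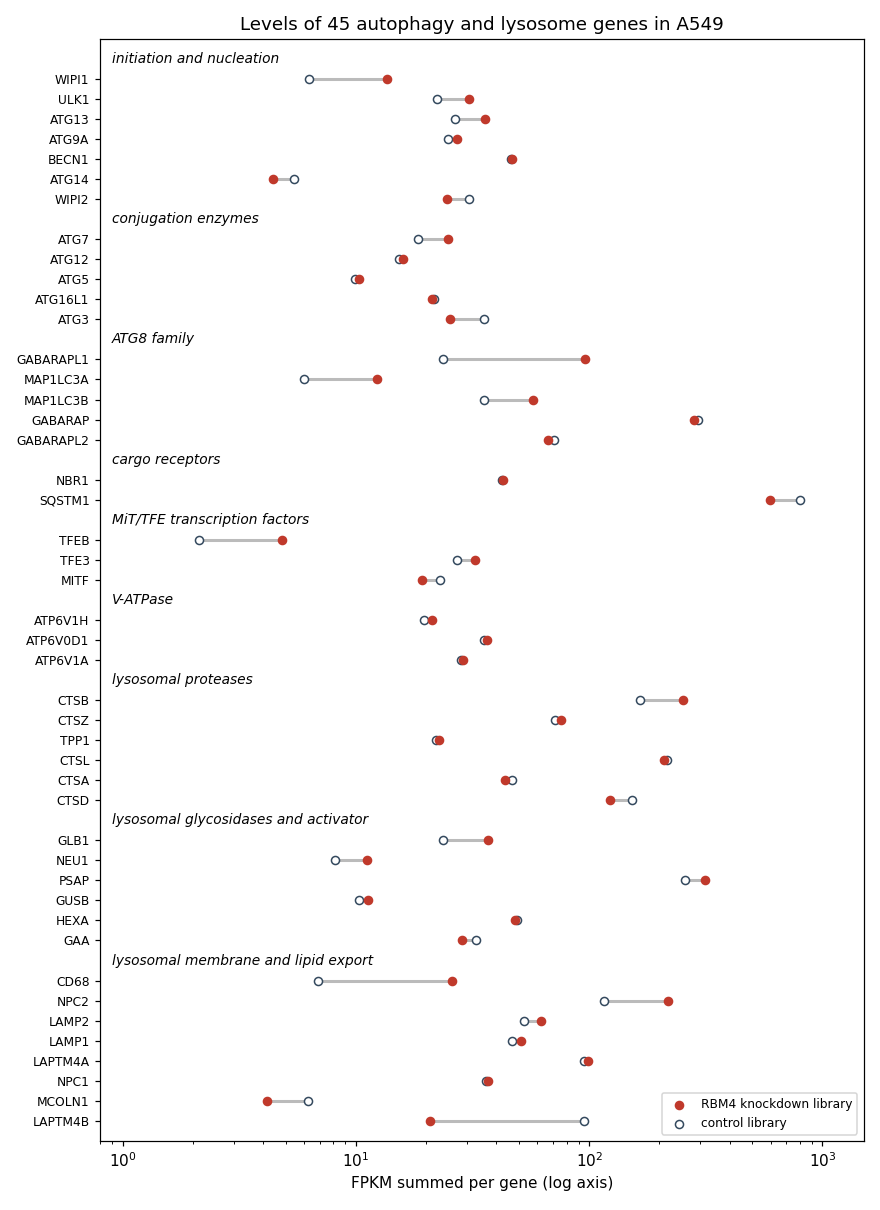
FPKM of each of the 45 members in the RBM4 knockdown library (filled red) and the control library (open), on a log axis, grouped by role and ordered within a role by difference. Levels run from 2.12 FPKM for TFEB in the control library to 804 FPKM for SQSTM1 in the control library.

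Differences of the 7 genes that start an autophagosome ran from -0.30 to 0.99, and only WIPI1 reached 1.5-fold. WIPI1, which binds the lipid made by the BECN1 complex, had 13.5 FPKM in the knockdown library and 6.30 FPKM in the control library, a difference of 0.99. The main transcript WIPI1-201 had 10.4 FPKM in the knockdown and 5.42 FPKM in the control library. Its relative WIPI2 went the other way, with 24.7 FPKM in the knockdown and 30.5 FPKM in the control library (-0.30).

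The kinase gene ULK1 had 30.6 FPKM in the knockdown and 22.2 FPKM in the control library (0.45). Its partner ATG13 had 35.7 FPKM in the knockdown and 26.6 FPKM in the control library (0.41). The scaffold gene BECN1 had 46.5 FPKM in the knockdown and 46.3 FPKM in the control library. ATG9A, the membrane protein of the seed vesicles, had 27.0 FPKM in the knockdown and 24.8 FPKM in the control library (0.12), and ATG14, which directs the BECN1 complex to autophagy, was low at 4.41 FPKM in the knockdown and 5.44 FPKM in the control library (-0.25). With 1 added to FPKM no initiation gene passed 2-fold, although the plain FPKM ratio of WIPI1 was 2.15. The median of the 7 was 0.12.

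The 5 conjugation genes had a median of 0.05, and none differed by 1.5-fold. ATG3, the enzyme that transfers ATG8 proteins to lipid, had 25.2 FPKM in the knockdown and 35.4 FPKM in the control library (-0.47). ATG7, the enzyme that activates them, had 24.9 FPKM in the knockdown and 18.5 FPKM in the control library (0.41). The ATG7 sum includes the short transcript ATG7-215 at 5.23 FPKM in the knockdown and 2.08 FPKM in the control library. The most abundant ATG7 transcript had 6.12 FPKM in the knockdown and 6.38 FPKM in the control library, and by the highest transcript alone the sign turned, to -0.05. ATG5, ATG12 and ATG16L1, which form the complex that places ATG8 proteins on the membrane, lay between -0.02 and 0.06.

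The ATG8 family held the widest spread among the autophagy genes. GABARAPL1 (ENSG00000139112, chr12:10212458-10223130, plus strand, hg38) had 96.2 FPKM in the knockdown library and 23.6 FPKM in the control library, 4.08 times as much and a log2 difference of 1.98. Of all 12230 genes, 90 had a higher difference. MAP1LC3A had 12.3 FPKM in the knockdown and 5.96 FPKM in the control library (0.93). MAP1LC3B, which encodes the LC3 form used as the standard autophagosome marker, had 57.3 FPKM in the knockdown and 35.5 FPKM in the control library (0.68). These 3 genes were higher in the knockdown library.

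The other 2 members of the family were the most abundant in the control library and differed little. GABARAP had 282 FPKM in the knockdown and 293 FPKM in the control library (-0.06). GABARAPL2 had 66.7 FPKM in the knockdown and 70.7 FPKM in the control library (-0.08). Both differences turned positive when the libraries were rescaled to the same total. The family summed to 514 FPKM in the knockdown and 429 FPKM in the control library. GABARAPL1 made up 18.7% of that sum in the knockdown and 5.51% in the control library, which moved it above GABARAPL2 and MAP1LC3B in the order of levels, and GABARAP made up 54.8% in the knockdown and 68.3% in the control library.

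Close copies limit 2 of these values. GABARAPL1 has the processed pseudogene GABARAPL3, and MAP1LC3B has the near-identical gene MAP1LC3B2, which had 3.47 FPKM in the knockdown and 1.99 FPKM in the control library. How reads were shared between copies is not given in the sources used here.

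Neither cargo receptor was higher by 1.5-fold. SQSTM1, which encodes p62 and carries ubiquitin-tagged cargo, was the most abundant member in both libraries, with 596 FPKM in the knockdown and 804 FPKM in the control library (-0.43). A transcript of 274 bases, SQSTM1-216, contributed 210 FPKM of the knockdown sum and 261 FPKM of the control sum, and short transcripts get high FPKM from few fragments. The full-length transcripts SQSTM1-202 and SQSTM1-201 were lower too: 160 FPKM in the knockdown and 238 FPKM in the control library for the first, and 172 FPKM in the knockdown and 237 FPKM in the control library for the second. NBR1, the other receptor, had 42.5 FPKM in the knockdown and 42.4 FPKM in the control library.

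Among the transcription factors of the lysosome, TFEB was the lowest in level. It had 4.84 FPKM in the knockdown and 2.12 FPKM in the control library (0.90), below all other members in the control library. TFE3 had 32.3 FPKM in the knockdown and 27.2 FPKM in the control library (0.24), and MITF had 19.3 FPKM in the knockdown and 22.9 FPKM in the control library (-0.24). The order TFE3, MITF, TFEB was the same in both libraries, and the median of the 3 was 0.24.

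Promoter sequence was examined for the E-box core that these factors bind. RefSeq windows of 250 bases before and 50 bases after an annotated gene start (build GRCh38.p14) were at hand for 37 of the 45 members, and not for MAP1LC3A, LAMP2, CTSB, HEXA, ATP6V1A, ATP6V1H, PSAP and LAPTM4B. The palindrome CACGTG was present in the window of 9 of the 37 (24.3%), against 12.8% of 9494 genes with a window that reached 1 FPKM. The longer TCACGTGA, which contains CACGTG, was present in 6 of the 37 (16.2%), against 2.33% of the same genes. The 9494 genes include the members. Because these factors are known to drive many genes of this kind, the shares describe the list and are no test. Both motifs read the same on both strands. The 6 members are shown because they carry the longer form. Each stretch has 40 bases, 5′ to 3′ on the strand of the gene, with TCACGTGA in capitals.
LAMP1, chr13:113297221-113297260, plus strand: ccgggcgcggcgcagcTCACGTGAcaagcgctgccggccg
MCOLN1, chr19:7522593-7522632, plus strand: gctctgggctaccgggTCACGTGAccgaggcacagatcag
CTSA, chr20:45891293-45891332, plus strand: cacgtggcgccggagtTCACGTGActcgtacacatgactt
GAA, chr17:80101533-80101572, plus strand: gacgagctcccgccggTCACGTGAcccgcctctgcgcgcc
ATP6V0D1, chr16:67481194-67481233, minus strand: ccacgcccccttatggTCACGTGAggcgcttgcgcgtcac
ATG3, chr3:112561935-112561974, minus strand: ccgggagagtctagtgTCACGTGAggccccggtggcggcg

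The motif began 2 bases before the annotated start in LAMP1, 15 before in MCOLN1, 26 before in CTSA, 32 before in GAA and 60 before in ATP6V0D1, and 4 bases after it in ATG3. LAMP1, a heavily glycosylated protein of the lysosomal membrane, had 6 copies of CACGTG in its window, the most of any member, and 2 of them lie in TCACGTGA, of which the stretch above centres on the one nearest the start. Its whole window is shown for that reason, with each CACGTG in capitals (chr13:113296989-113297288, plus strand).
LAMP1 window: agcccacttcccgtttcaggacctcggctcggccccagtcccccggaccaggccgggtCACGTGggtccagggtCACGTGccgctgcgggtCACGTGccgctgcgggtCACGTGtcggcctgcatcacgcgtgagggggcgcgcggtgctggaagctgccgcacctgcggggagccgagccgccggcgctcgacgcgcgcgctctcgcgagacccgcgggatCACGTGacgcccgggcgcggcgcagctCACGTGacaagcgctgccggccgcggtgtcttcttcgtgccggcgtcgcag

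The 9 members with CACGTG were LAMP1, MCOLN1, CTSA, GAA, ATP6V0D1, ATG3, NEU1, CTSD and ATG14. Their differences ran from -0.48 in MCOLN1 to 0.41 in NEU1, with 3 above 0 (NEU1, LAMP1 and ATP6V0D1) and 6 below. The median of the 9 was -0.19. It was -0.09 at the same total FPKM and -0.03 without the mitochondrial genome, where 4 lay above 0 and 5 below. None of the 9 reached 1.5-fold, past which 12.7% of all genes were higher and 9.83% lower. This is a description of 1 window per annotated start, and a window with no match says only that these letters are not in it.

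The GABARAPL1 window is shown because the gene had the highest difference of the members and holds no CACGTG. It contains TGACGTCA once, in capitals, a motif looked for after the sequence had been read and present in the windows of 2 of the 37 members and of 3.90% of the 9494 genes (chr12:10212627-10212926, plus strand).
GABARAPL1 window: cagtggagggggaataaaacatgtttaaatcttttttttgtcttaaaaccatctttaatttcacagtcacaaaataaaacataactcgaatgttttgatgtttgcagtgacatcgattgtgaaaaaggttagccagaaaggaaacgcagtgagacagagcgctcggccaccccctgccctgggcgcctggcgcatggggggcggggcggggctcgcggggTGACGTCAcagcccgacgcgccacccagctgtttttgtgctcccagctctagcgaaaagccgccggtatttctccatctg

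The 3 proton pump genes among the members were at near-equal levels in both libraries. ATP6V0D1, a subunit of the membrane part, had 36.6 FPKM in the knockdown and 35.4 FPKM in the control library (0.05). ATP6V1A, the subunit that splits ATP, had 28.8 FPKM in the knockdown and 28.1 FPKM in the control library (0.03), and ATP6V1H, a regulatory subunit, had 21.2 FPKM in the knockdown and 19.6 FPKM in the control library (0.11). All 3 were above 0, by amounts far smaller than the robust SD of 0.45 over all genes. That SD is a spread across genes and not the error of a single gene.

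Lysosomal proteases were abundant, and 1 of the 6 differed by 1.5-fold. CTSB, the cysteine protease cathepsin B, had 253 FPKM in the knockdown and 165 FPKM in the control library (0.61). CTSL, another cysteine protease, had 208 FPKM in the knockdown and 215 FPKM in the control library (-0.05). CTSD, the main aspartic protease of the lysosome, had 123 FPKM in the knockdown and 153 FPKM in the control library (-0.31). The order of these 3 levels therefore began with CTSB in the knockdown library and with CTSL in the control library.

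CTSZ, a carboxypeptidase, had 75.8 FPKM in the knockdown and 71.6 FPKM in the control library (0.08). CTSA, which also protects GLB1 and NEU1 in a shared complex, had 43.6 FPKM in the knockdown and 46.9 FPKM in the control library (-0.10, above 0 after either rescaling and by the highest transcript). TPP1, a tripeptidyl peptidase, had 22.6 FPKM in the knockdown and 22.1 FPKM in the control library (0.03). The 6 proteases summed to 726 FPKM in the knockdown and 674 FPKM in the control library.

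GLB1 (ENSG00000170266, chr3:32996608-33097230, minus strand), the gene of senescence-associated beta-galactosidase, had 36.6 FPKM in the knockdown library and 23.6 FPKM in the control library (0.61), the highest difference of the 6 glycosidase and activator genes. Of all genes, 11.9% had a higher difference. One transcript carried it: GLB1-201 had 32.7 FPKM in the knockdown and 16.6 FPKM in the control library (0.93), while 5 of the other 6 were lower in the knockdown library and 1 was listed at 0 in both. GLB1-203 had 3.25 FPKM in the knockdown and 4.29 FPKM in the control library. GLB1 shares exons with TMPPE, which had 3.28 FPKM in the knockdown and 2.67 FPKM in the control library.

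NEU1, the sialidase that forms a complex with GLB1 and CTSA, had 11.2 FPKM in the knockdown and 8.16 FPKM in the control library (0.41). PSAP, the precursor of the saposins that help glycosidases reach lipids, was the most abundant of this group, with 314 FPKM in the knockdown and 256 FPKM in the control library (0.29). GUSB, a beta-glucuronidase often used as a control gene, had 11.3 FPKM in the knockdown and 10.3 FPKM in the control library (0.13). These 3 were higher by less than 1.5-fold.

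HEXA, a subunit of beta-hexosaminidase, had 48.2 FPKM in the knockdown and 48.9 FPKM in the control library (-0.02). Its difference was above 0 after either rescaling and with the median of all genes at 0. GAA, which breaks down glycogen, had 28.5 FPKM in the knockdown and 32.7 FPKM in the control library (-0.19, and -0.03 without the mitochondrial genome). Senescence-associated staining is read from GLB1 activity, and the glycosidases beside it did not share one direction in these libraries.

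The lysosomal membrane and lipid export genes held both extremes of the lysosome. LAPTM4B, a transmembrane protein of late endosomes and lysosomes, had 20.7 FPKM in the knockdown library and 94.97 FPKM in the control library, 21.8% of the control level and a difference of -2.15. Only 11 of 12230 genes had a lower difference. All 4 listed transcripts were lower, and the main one, LAPTM4B-204, had 15.2 FPKM in the knockdown and 75.1 FPKM in the control library. Its paralog LAPTM4A had 98.3 FPKM in the knockdown and 95.3 FPKM in the control library (0.05), so the paralogs were at about the same level in the control library alone.

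CD68 (ENSG00000129226, chr17:7579467-7582113, plus strand), a lysosomal membrane glycoprotein that is abundant in macrophages, had 25.8 FPKM in the knockdown and 6.90 FPKM in the control library (1.76), and 128 genes had a higher difference. The main transcript CD68-201 had 18.5 FPKM in the knockdown and 6.48 FPKM in the control library (1.38). CD68 overlaps the exons of a non-coding transcript, AC016876.2, on the same strand. Of 11 other macrophage and monocyte genes, 10 were below 1 FPKM in both libraries, and CD163, LYZ, AIF1, FCGR3A and TYROBP were listed at 0 in both. The pan-leukocyte gene PTPRC had 0.047 FPKM in the knockdown library and was listed at 0 in the control library. CSF1R and MSR1, at 0.21 and 0.057 FPKM in the knockdown library, were also listed at 0 in the control library. ITGAM had 0.76 FPKM in the knockdown and 0.56 FPKM in the control library, and MRC1 had 0.010 FPKM in both. Values this low are near the floor. The 11 genes summed to 5.40 FPKM in the knockdown and 2.73 FPKM in the control library, most of it from CD14, with 4.32 FPKM in the knockdown and 2.16 FPKM in the control library.

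NPC2, which binds cholesterol inside the lysosome and hands it to NPC1, had 217 FPKM in the knockdown and 116 FPKM in the control library (0.90). The transcripts NPC2-207 and NPC2-206 were both higher, with 125 FPKM in the knockdown and 73.6 FPKM in the control library for the first, and 90.6 FPKM in the knockdown and 41.8 FPKM in the control library for the second. NPC2-206 is short, at 469 bases, and without transcripts under 600 bases NPC2 differed by 0.77. NPC1, the membrane protein that takes the cholesterol out, had 37.0 FPKM in the knockdown and 36.1 FPKM in the control library (0.04). MCOLN1, the calcium channel of the lysosome, had 4.16 FPKM in the knockdown and 6.21 FPKM in the control library (-0.48). MCOLN1 shares exons with the more abundant PNPLA6, which had 35.1 FPKM in the knockdown and 33.3 FPKM in the control library.

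The structural glycoproteins of the lysosomal membrane were nearly level. LAMP1 had 50.8 FPKM in the knockdown and 46.7 FPKM in the control library (0.12). LAMP2 had 62.0 FPKM in the knockdown and 52.3 FPKM in the control library (0.24). Its transcripts encode different tails: LAMP2-201 gives LAMP2A, the receptor of chaperone-mediated autophagy, and LAMP2-202 and LAMP2-203 give LAMP2B and LAMP2C. LAMP2-201 had 23.6 FPKM in the knockdown and 24.2 FPKM in the control library (-0.03). LAMP2-202 had 35.8 FPKM in the knockdown and 24.0 FPKM in the control library (0.56), so that it made up 57.7% of LAMP2 in the knockdown and 45.9% in the control library.

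Because RBM4 regulates splicing, transcript shares were compared in the 42 members with 5 FPKM or more in both libraries. In 41 of them the most abundant transcript was the same in both libraries. A share that differed by 20 percentage points or more occurred in 2 genes. In GABARAPL1 the transcript GABARAPL1-219, of 379 bases, had 25.0 FPKM in the knockdown library and was listed at 0 in the control library. In CD68 the transcript CD68-204, of 582 bases, had 6.79 FPKM in the knockdown library and was listed at 0 in the control library. Both are short, and FPKM of short transcripts is an estimate that moves with few fragments. Without any transcript under 600 bases, GABARAPL1 differed by 1.69 and CD68 by 1.34, so both stayed past 2-fold.

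The member whose most abundant transcript differed was LAMP2, where LAMP2-202 led in the knockdown library and LAMP2-201 led narrowly in the control library. CTSA, picked after its values were seen, had a shift just short of the limit: CTSA-202 made up 7.75% of the gene in the knockdown and 27.6% in the control library. Per transcript it had 3.38 FPKM in the knockdown and 12.9 FPKM in the control library, while CTSA-201 had 23.0 FPKM in the knockdown and 19.2 FPKM in the control library.

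**Figure D3:**
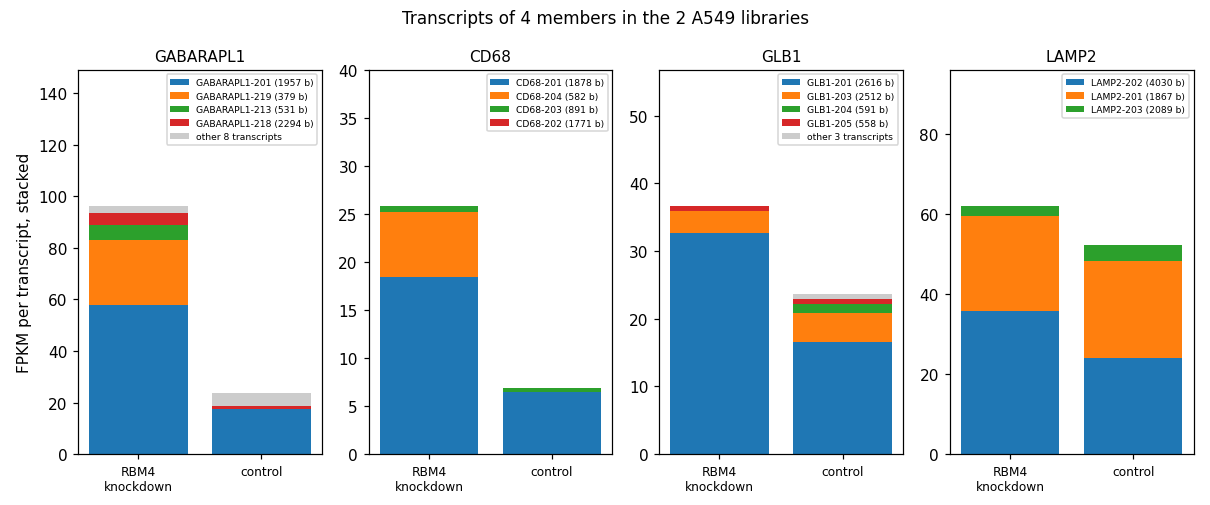
FPKM of the transcripts of GABARAPL1, CD68, GLB1 and LAMP2, stacked, in the RBM4 knockdown library (left bar of each panel) and the control library (right bar), with transcript lengths in bases. The segment with the highest FPKM is GABARAPL1-201, at 58.0 FPKM in the knockdown and 17.5 FPKM in the control library. Each panel has its own vertical scale, so lengths cannot be compared between panels.

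The rest of the pathway was read from 6 further lists, with 141 genes, of which 134 reached 1 FPKM. At the 2-fold level 4 of them (2.99%) were higher, against 4.96% of all genes, and 1 (0.75%) was lower, against 2.25%. In all, 83 lay above 0 (61.9%), where 46.6% of all genes did. At 1.5-fold 23 (17.2%) were higher, against 12.7% of all genes, and 5 (3.73%) were lower, against 9.83%. These lists too were chosen with earlier results of these data known, so the shares are description only. The lysosomal enzymes had the highest median of the 6 lists, 0.26 over 34 genes, with 25 above 0. Of these enzymes 9 (26.5%) were higher and 1 (2.94%) lower by 1.5-fold. Of the other lists, the counts higher by 1.5-fold were 5 of 25 for autophagy machinery, 2 of 11 for receptors, 1 of 16 for pump subunits, 5 of 28 for membrane, transport and sorting and 1 of 20 for mTORC1, and those lower were 1 for receptors and 3 for mTORC1. LGMN, an asparagine-specific protease, had 56.8 FPKM in the knockdown and 25.6 FPKM in the control library (1.12), and CTSS, cathepsin S, had 10.4 FPKM in the knockdown and 4.45 FPKM in the control library (1.07). The sulfatase gene ARSA had 15.2 FPKM in the knockdown and 6.94 FPKM in the control library (1.03). The lowest were GLA, alpha-galactosidase A, with 38.7 FPKM in the knockdown and 67.0 FPKM in the control library (-0.78), and PPT1 (-0.44).

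Further autophagy machinery had a median of 0.17 over 25 genes. With 1 added to FPKM none was past 2-fold, although the plain FPKM ratio of RUBCN was 2.16. RUBCN, an inhibitor of autophagosome maturation, had 10.9 FPKM in the knockdown and 5.02 FPKM in the control library (0.98), followed by ATG16L2 (0.82). STX17, the fusion protein of the autophagosome, was lowest (-0.36), then ATG4C (-0.18). Among 11 further receptor genes TOLLIP (0.72) and OPTN (0.64) were highest and the mitochondrial receptor FUNDC1 (-0.76) and WDFY3 (-0.57) lowest, with a median of 0.09. The pump list, 16 of 20 genes measured, had a median of 0.06, from TCIRG1, with 46.6 FPKM in the knockdown and 24.2 FPKM in the control library (0.92), and ATP6V1D (0.33) to ATP6V0C (-0.37) and ATP6V0E2 (-0.47).

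Lysosomal membrane, transport and sorting genes had a median of 0.09 over 28 genes. LAPTM5 had 1.02 FPKM in the knockdown library and was listed at 0 in the control library, and GNPTG, a subunit of the enzyme that tags lysosomal proteins for delivery, had 16.4 FPKM in the knockdown and 8.35 FPKM in the control library (0.90). TMEM192 (-0.53) and VPS41 (-0.28) were lowest. The kinase complex mTORC1, which holds TFEB in the cytoplasm when nutrients are plentiful, and its docking proteins had a median of -0.05 over 20 genes, with 5 above 0. That median was positive after either rescaling, at 0.06 and 0.11. MLST8, a core subunit, had 9.28 FPKM in the knockdown and 23.3 FPKM in the control library (-1.24), and DEPTOR was next (-0.84). FNIP2 (0.90) and FNIP1 (0.47), partners of folliculin, were highest.

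**Figure D4:**
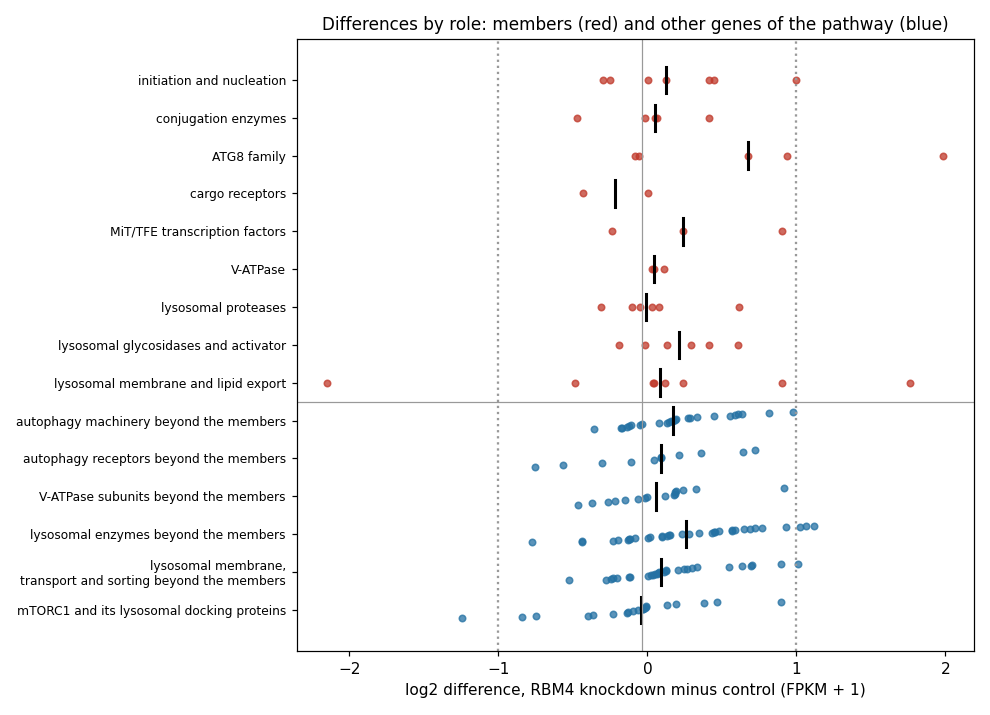
Log2 difference, knockdown minus control, of FPKM plus 1 for the 45 members by role (red, above the line) and for genes of 6 further pathway lists that reached 1 FPKM (blue). Black bars are medians, the thin vertical line is the median of all genes (-0.04) and dotted lines mark 2-fold. The ATG8 family has the highest median of the 9 roles, 0.68, and cargo receptors the lowest, -0.21.

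Reads of overlapping genes limit some members. Exons of 6 members (GABARAP, ATG9A, CTSD, HEXA, GLB1 and MCOLN1) overlap those of another protein-coding gene on the same strand in GENCODE release 29. Exons of 20 members overlap a gene on the opposite strand, and since the strand setting is not given in the sources used here, their reads may not be separable. None of these 6 was past 2-fold, so leaving them out could not change the counts of members past 2-fold. The median without them was 0.06. CD68, which overlaps a non-coding transcript on the same strand, was kept.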

How the data were processed

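The authors deposited FPKM per protein-coding transcript, with Ensembl identifiers and symbols, in 1 table per cell line. The tools named by the submitters are Cufflinks, TopHat and CASAVA (version 1.8.2), with hg38 as the build, per the submitters' processing notes. Their roles, the annotation and the strand setting are not given in the sources used here. RNA was taken with Trizol and libraries were made with an Illumina TruSeq kit, per the labels. The 2 columns of the A549 table were used. For H1299, 3 value columns have names that no label explains, and none of these 3 was used. FPKM of 79989 transcripts were summed per symbol (26 symbols join 2 gene identifiers), a pseudocount of 1 was added, and genes at 1 FPKM or more in either library were counted by fold. FPKM is relative within a library, so a few abundant genes move all others. No depth is known and no test was made, because each group has 1 library. The counting was tested on simulated data. Members, roles and lists were chosen with earlier results of these data known. Every member may be named. Of each other list the 2 highest and 2 lowest were, and the macrophage and monocyte genes were named in full. ARSA was added after its value was seen, as were single transcripts. FAM134B was matched by identifier. Alternatives changed the pseudocount, minimum, scaling and transcripts summed. Positions come from GENCODE release 29, promoters from RefSeq. Python 3.11.15, pandas 2.3.3 and numpy 2.4.6 were used.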

Additional observations from a re-analysis of the deposited data

How the results depend on the processing

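With a pseudocount of 0.1, 1403 genes differed by 2-fold, 985 higher and 418 lower, and 5 members were higher, against 8.05% of all genes. Rescaled to the same total FPKM, 5 members (11.1%) were higher by 2-fold, against 6.03% of all genes, and the members' median was 0.15. Without the mitochondrial genome 6 members (13.3%) were higher, against 6.62% of all genes, their median was 0.21, and 176 of all genes were lower. With a minimum of 5 FPKM, which removes TFEB, the median of the transcription factors was -0.0011. Of 45 members, 8 changed sign under some alternative: GABARAP, GABARAPL2 and CTSL under both rescalings, ATG16L1 and HEXA under both and under centring of all genes at 0, CTSA under both rescalings and by the highest transcript, and ATG7 and NBR1 by the highest transcript. Transcripts under 600 bases and exon-sharing members were left out as alternatives chosen after seeing the data. WIPI1 was past 2-fold without the short transcripts, at 1.02. No paired analysis was possible because each group has 1 library. Depth is unknown, so low genes such as TFEB, ATG14 and MCOLN1 carry the least certain values.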

Other observations

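TFEB was under the level set for describing transcripts, and its transcripts were looked at after the gene's values were known. TFEB-207 had 2.25 FPKM in the knockdown and 0.32 FPKM in the control library, and TFEB-205 had 1.01 FPKM in the knockdown and 0.078 FPKM in the control library. TFEB-204, the most abundant in the control library, had 0.61 FPKM in the knockdown and 0.88 FPKM in the control library. In the control library all 3 were below 1 FPKM.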
